A study of Rattus norvegicus with 4 samples.

Results

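*Cyp2e1*, *Cyp2a1* and *Cyp2a2* encode cytochromes P450 of the liver endoplasmic reticulum, and the 3 genes were picked by symbol from the 16999 named genes analysed. Their values were not part of that rule, but earlier results of these data were known when the genes were chosen. Their levels were read from RNA-seq of 4 rat livers, 1 library in each of 4 groups. Wild type rats inhaled sevoflurane at 4.5% or desflurane at 6%, a pair of halogenated ethers used for general anesthesia, and were decapitated either as soon as they lost consciousness (0 h, the control of that agent) or after 6 h of anesthesia. Thus all 4 animals, controls included, had inhaled an anesthetic. The sources used here name neither strain, sex nor age, nor whether a library came from a single animal. No value has a replicate error, since each group held 1 library, and the livers of control and anesthetized rats were taken 6 h apart, so that anesthesia and the hour of the day cannot be told apart in any comparison of 6 h with 0 h.

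P450 enzymes are heme proteins that insert an oxygen atom into a substrate, with electrons delivered by the reductase encoded by *Por*. Cyp2e1 oxidizes small molecules such as ethanol, acetone and acetaminophen, and it is the main enzyme that removes fluoride from sevoflurane, whereas desflurane is oxidized very little. Its gene is expressed in the hepatocytes around the central vein. Cyp2a1 and Cyp2a2 hydroxylate testosterone and related steroids. They are close relatives of each other, and in rat liver their levels depend on sex and on growth hormone.

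*Cyp2e1* differed most between times among the members. Its level in TPM (a transcript abundance scaled for gene length and library size) was 543 in the sevoflurane control, 1015 after 6 h of sevoflurane, 610 in the control of desflurane and 1364 after 6 h of desflurane. Both anesthetized livers thus lay above both controls. *Cyp2a1* had TPM values of 178, 154, 184 and 196 in the same order, with the 6 h values on either side of the controls. *Cyp2a2* had TPM values of 308, 225, 291 and 266, and both of its 6 h values lay below both controls. The mean sequencing coverage of these genes was high, between 421-fold for *Cyp2a1* in the sevoflurane control and 4962-fold for *Cyp2e1* after desflurane, so their values rest on many reads in every library.

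**Figure D1:**
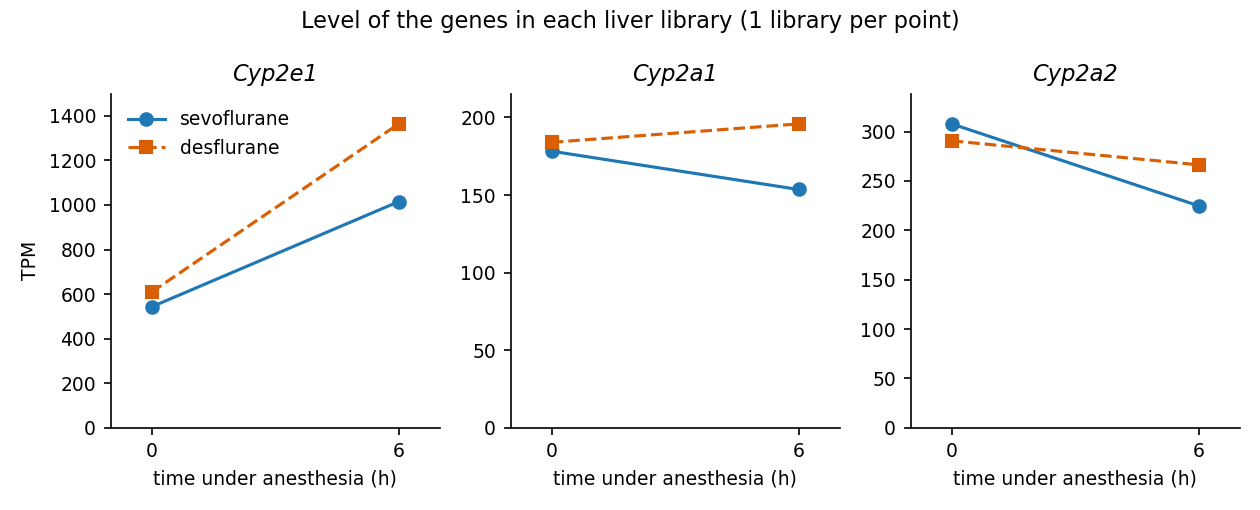
TPM of *Cyp2e1*, *Cyp2a1* and *Cyp2a2* (y axes from 0) against time under anesthesia in hours, with 1 library per point and lines that join the control and the anesthetized liver of an agent. *Cyp2e1* lies at 543 and 610 at 0 h and at 1015 and 1364 at 6 h, while *Cyp2a1* and *Cyp2a2* stay between 154 and 308.

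Ordered by level, *Cyp2e1* was lowest in the sevoflurane control, followed by the desflurane control, sevoflurane 6 h and desflurane 6 h. The neighbouring controls differed 1.12-fold and the neighbouring 6 h livers 1.34-fold, which is as near as these libraries come to a spread between livers of a like time, and both pairs also differed in agent and dose. The step between them, from the desflurane control to sevoflurane 6 h, was 1.67-fold. Across the 4 libraries *Cyp2a1* spanned 1.28-fold and *Cyp2a2* 1.37-fold, against 2.51-fold for *Cyp2e1*.

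*Cyp2e1* lies on the plus strand of chromosome 1 from 213511905 to 213522195, and *Cyp2a1* and *Cyp2a2* on the same strand of that chromosome from 83711251 to 83724933 and from 83711261 to 83766490. These coordinates are those of the tables, and the submitters' processing notes name the build rn6. Exon and untranslated region annotation of that build was not used here. The DNA just upstream of the start site was available for 2 of the 3 genes from RefSeq (assembly GRCr8, a build other than that of the tables). It is shown because *Cyp2e1* and *Cyp2a1* differed in their levels at 6 h, and the capitals mark the TATA box (TATAAA) and the CCAAT box, which in both genes is read on the opposite strand as ATTGG. The stretches are the 250 bases before the start of *Cyp2e1*, chr1:205269717-205269966 (plus strand), and of *Cyp2a1*, chr1:91359028-91359277 (plus strand).
Cyp2e1: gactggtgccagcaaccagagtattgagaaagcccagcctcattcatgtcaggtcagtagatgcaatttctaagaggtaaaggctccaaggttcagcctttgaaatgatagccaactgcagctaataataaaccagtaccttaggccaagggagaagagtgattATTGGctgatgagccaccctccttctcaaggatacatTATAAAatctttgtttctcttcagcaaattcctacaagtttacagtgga
Cyp2a1: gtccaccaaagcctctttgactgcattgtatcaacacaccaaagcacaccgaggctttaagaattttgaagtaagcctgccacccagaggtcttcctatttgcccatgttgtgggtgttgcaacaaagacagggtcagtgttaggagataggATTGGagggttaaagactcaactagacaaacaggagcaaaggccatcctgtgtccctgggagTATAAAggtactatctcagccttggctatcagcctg

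The first base of the TATA box lay 49 bases before the start of *Cyp2e1* and 36 bases before that of *Cyp2a1*, and these letters occurred on either strand in 12.9% of 33469 windows of the same length in the RefSeq table. The CCAAT box lay 86 and 98 bases before the start and occurred in 34.0% of windows. Among other motifs searched on both strands, the nuclear receptor half-site AGGTCA was present in *Cyp2e1*, 200 bases before the start, and not in *Cyp2a1*, and it occurred in 14.1% of windows. The core of the D-box bound by Dbp and Tef (TTATGNAA) and a STAT5 site (TTCNNNGAA) were found in neither window, and they occurred in 3.28% and 7.67% of all windows. The AGGTCA match overlaps none of the marked boxes.

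To ask whether the members were altered by each agent, each 6 h liver was set against its own agent's control. A gene was called higher or lower where the larger TPM was above 2 and more than 2 times the smaller. *Cyp2e1* was 1.87-fold higher after sevoflurane, which is not past this rule, and rose 2.24-fold with desflurane, which is. The rule called 8.75% of the 8270 genes above the minimum with sevoflurane, 5.04% of them as higher, and 9.65% of 8372 with desflurane, 4.10% as higher. At a ratio above 1.5, which 13.9% and 9.07% of genes passed as higher, *Cyp2e1* would be called with both. On the log2(TPM + 1) scale, which understates the change of low genes, the differences of *Cyp2e1* were 0.90 and 1.16. These were above the changes of 95.8% of genes with sevoflurane and of 97.6% with desflurane. In the comparison of the controls, in which 2.76% of 8263 genes were called, the desflurane control was 0.17 above the sevoflurane control.

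*Cyp2a1* and *Cyp2a2* were not called with either agent. With sevoflurane their TPM was 13.8% and 27.0% lower than in the control, with log2 changes of -0.21 and -0.45. With desflurane *Cyp2a1* was 6.45% higher (0.09) and *Cyp2a2* was 8.37% lower (-0.13). The controls differed by 0.05 for *Cyp2a1* and by -0.08 for *Cyp2a2*. With sevoflurane 10.7% of genes had a more negative change than *Cyp2a2*. The rule called 3.71% of genes as lower with sevoflurane and 5.55% with desflurane.

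The median change was not at 0 over all 9201 genes whose mean TPM reached 1. It was 0.05 with sevoflurane, -0.10 with desflurane and 0.11 between the controls. With each library scaled by the median of its ratios, which removes this shift, the ratio of *Cyp2e1* was 1.80 with sevoflurane, 2.41 with desflurane and 1.02 between the controls. The ratio of *Cyp2a1* was then 0.828 and 1.15 for the respective agents, and for *Cyp2a2* it was 0.702 and 0.988. The sum of *Cyp2a1* and *Cyp2a2* was 0.974 of its control with desflurane and 1.05 under that scaling, so its direction with desflurane turned. With sevoflurane it was 0.779 and 0.748. With the controls exchanged, *Cyp2e1* was 1.67 times the desflurane control in sevoflurane 6 h and 2.51 times the sevoflurane control in desflurane 6 h.

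A limma fit across the 8024 genes whose mean TPM reached 2, with agent as a covariate and 2 libraries per time, tested the change shared by the agents. The fit has 1 residual degree of freedom and relies on the spread shared with other genes. *Cyp2e1* was higher at 6 h by 1.03 on the log2 scale (SE 0.12, adjusted p = 9.9e-05), in 2 of 2 agents. A limma adjusted p under 0.05 was reached by 8.62% of genes in either direction by 4.69% as higher and by 3.94% as lower. *Cyp2a2* was lower in 2 of 2 agents by -0.29 (SE 0.13), which did not pass the correction (limma adjusted p = 0.23). *Cyp2a1* differed by -0.06 (SE 0.13, limma adjusted p = 0.86). The call of *Cyp2e1* was lost without the sevoflurane control (0.95, limma adjusted p = 0.080) and without the filter on low genes (limma adjusted p = 0.094).

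Each agent was inhaled at its own dose, so the values of the agents are given side by side. At 6 h the TPM of *Cyp2e1* was 1015 with sevoflurane and 1364 with desflurane, that of *Cyp2a1* 154 and 196, and that of *Cyp2a2* 225 and 266. The ratio of 6 h to control was 1.87 and 2.24 for *Cyp2e1*, 0.862 and 1.06 for *Cyp2a1*, and 0.730 and 0.916 for *Cyp2a2*. Whether the agents differ in these ratios was not tested, with 1 pair of libraries each.

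The listed span of *Cyp2a2* starts 10 bp after that of *Cyp2a1* and covers 13673 bp of it, or 99.9% of the *Cyp2a1* span. Reads of the cluster could therefore be divided between the listed genes in more than one way, and each value is uncertain. The tables also hold loci assembled from the reads of each library, which show how the cluster was built up. In the controls and in sevoflurane 6 h, a locus with exactly the span and the TPM of *Cyp2a1* was assembled. The remainder of *Cyp2a2* was represented by a piece of 848 bp at a TPM of 377 and a piece of 16917 bp at 346 in the sevoflurane control, and by pieces of 837 bp at 327 and of 16954 bp at 309 in the desflurane control. In sevoflurane 6 h a single locus of 22382 bp at 273 took their place. In desflurane 6 h a locus of 55264 bp at a TPM of 450 spanned both genes, with a piece of 1624 bp at 88.8 inside it, while the summed TPM of the listed genes was 462. The loci downstream of *Cyp2a1* were thus at 346 and 309 in the controls and 273 in sevoflurane 6 h, against 308, 291 and 225 for *Cyp2a2*, the same order of libraries. No such comparison could be made for desflurane 6 h, where the genes were joined.

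**Figure D2:**
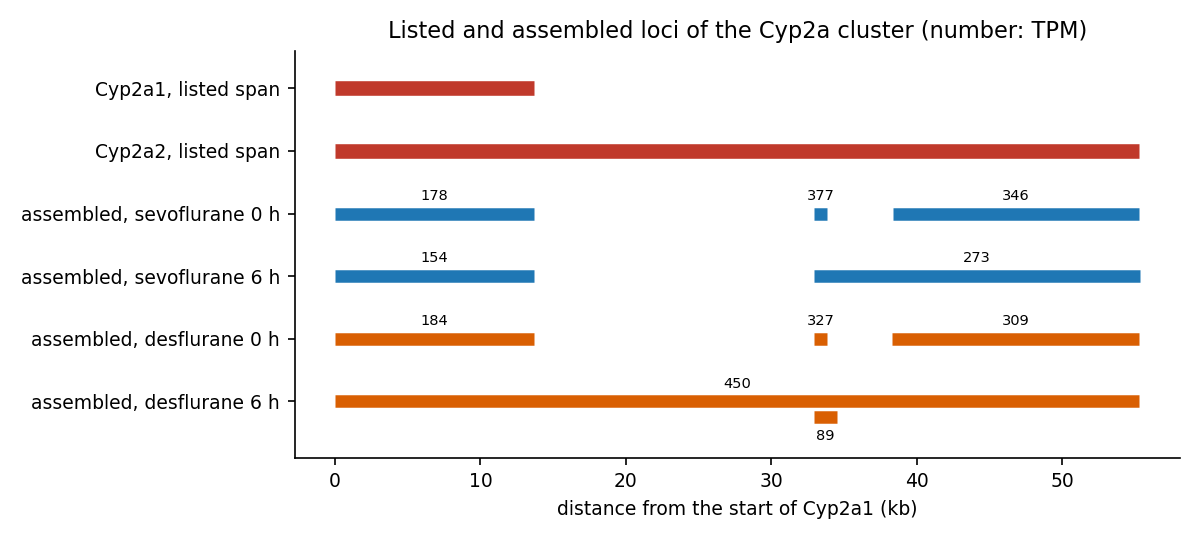
Listed spans of *Cyp2a1* and *Cyp2a2* and the loci assembled over them in each library, against the distance from the start of *Cyp2a1* in kb, with the TPM of each locus as a number. A locus of 55264 bp joins both genes in desflurane 6 h, while in the other libraries *Cyp2a1* is a locus of its own.

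For *Cyp2e1* the assembled locus had the same span and TPM as the listed gene in 3 libraries. In desflurane 6 h it began 100 bp further upstream and had a TPM of 1359, or 99.7% of the listed value. *Cyp2a3*, the third *Cyp2a* gene, whose product is found in lung and nose, lies 49132 bp upstream of *Cyp2a1*. It was listed at 0 in 3 libraries and at 0.0016 in the desflurane control, so the *Cyp2a* signal of these livers was that of *Cyp2a1* and *Cyp2a2*. The ratio of *Cyp2a2* to *Cyp2a1*, both per length in TPM, was 1.73 and 1.46 in the sevoflurane libraries at 0 h and 6 h, and 1.58 and 1.36 in the desflurane libraries.

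The members were then placed among the 73 listed P450 genes, of which 45 were above a TPM of 2 in each library. By TPM, *Cyp2e1* ranked 10 and 12 in the sevoflurane and desflurane controls, and 5 and 3 in the respective 6 h livers. In the sevoflurane libraries it accounted for 4.02% of the summed TPM of P450 genes at 0 h and 6.48% at 6 h, and in the desflurane libraries for 4.00% and 9.26%. The sum of the other P450 genes was 12972, 14642, 14630 and 13358, so it was higher at 6 h with sevoflurane and lower with desflurane. *Cyp2a1* accounted for between 0.981% and 1.33% of P450 TPM and *Cyp2a2* for between 1.44% and 2.28%, both lowest in sevoflurane 6 h. The 3 members together made up 7.62%, 8.90%, 7.11% and 12.4%.

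**Figure D3:**
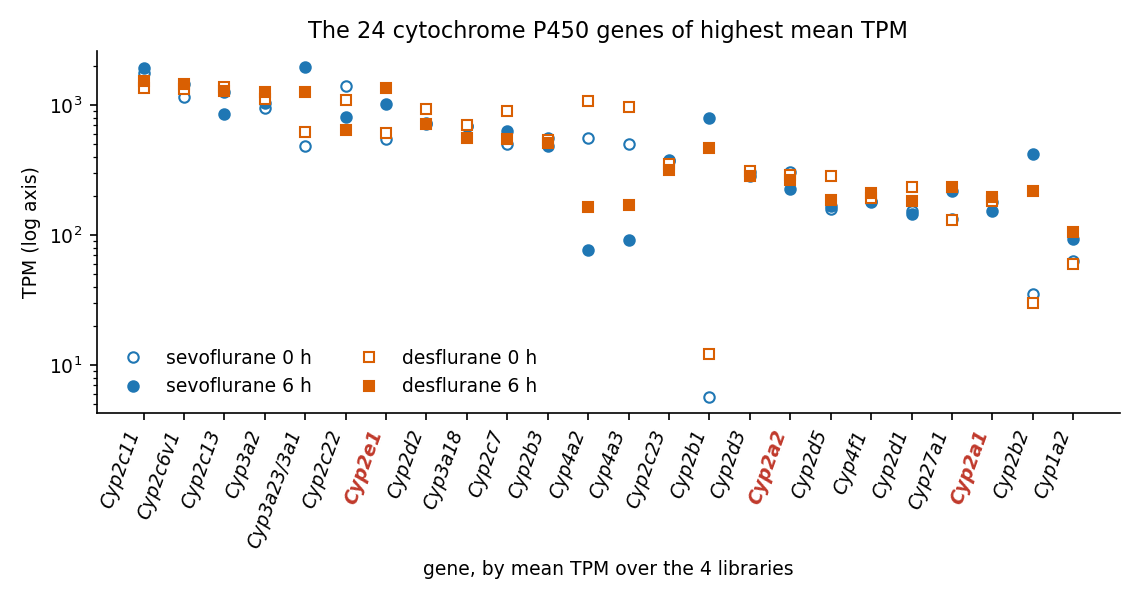
TPM on a log axis of the 24 P450 genes of highest mean TPM, with open symbols for 0 h and filled symbols for 6 h (circles, sevoflurane; squares, desflurane; 1 library each) and the names of the members in red. *Cyp2e1* ranks 10 and 12 among P450 genes in the controls and 5 and 3 at 6 h, while the symbols of *Cyp2a1* and *Cyp2a2* lie close together.

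Among the 47 P450 genes whose mean TPM reached 1, the change of *Cyp2e1* ranked 11 with sevoflurane and 3 with desflurane, where only *Cyp2b1* and *Cyp2b2* were ahead of it. *Cyp2b1*, whose induction is the classic response to phenobarbital, was 138-fold and 38.4-fold higher, so the change of *Cyp2e1* was small beside it. Of the 70 other P450 genes, 42 were above the minimum in each comparison, and 9 of them rose with sevoflurane while 2 fell. With desflurane 3 rose, *Cyp2b1*, *Cyp2b2* and *Cyp3a23/3a1*, and 4 fell, *Cyp4a2*, *Cyp4a3*, *Cyp4f6* and *Cyp2f4*. Over all genes the rule called 5.04% higher and 3.71% lower with sevoflurane, and 4.10% and 5.55% with desflurane. Within the rest of the *Cyp2* family, 21 of 29 genes were above the minimum. There, 3 were called higher and 0 were called lower with sevoflurane (*Cyp2b1*, *Cyp2b2* and *Cyp2c12*), and 2 were called higher and 1 lower with desflurane (*Cyp2b1*, *Cyp2b2* and *Cyp2f4*). The median change of these relatives was 0.02 with sevoflurane and -0.14 with desflurane, beside 0.05 and -0.10 over all genes. The most abundant of them, *Cyp2c11*, *Cyp2c6v1* and *Cyp2c13*, which encode the major steroid and drug hydroxylases of rat liver, had ratios of 1.09, 1.26 and 0.676 with sevoflurane and of 1.11, 1.09 and 0.946 with desflurane.

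**Figure D4:**
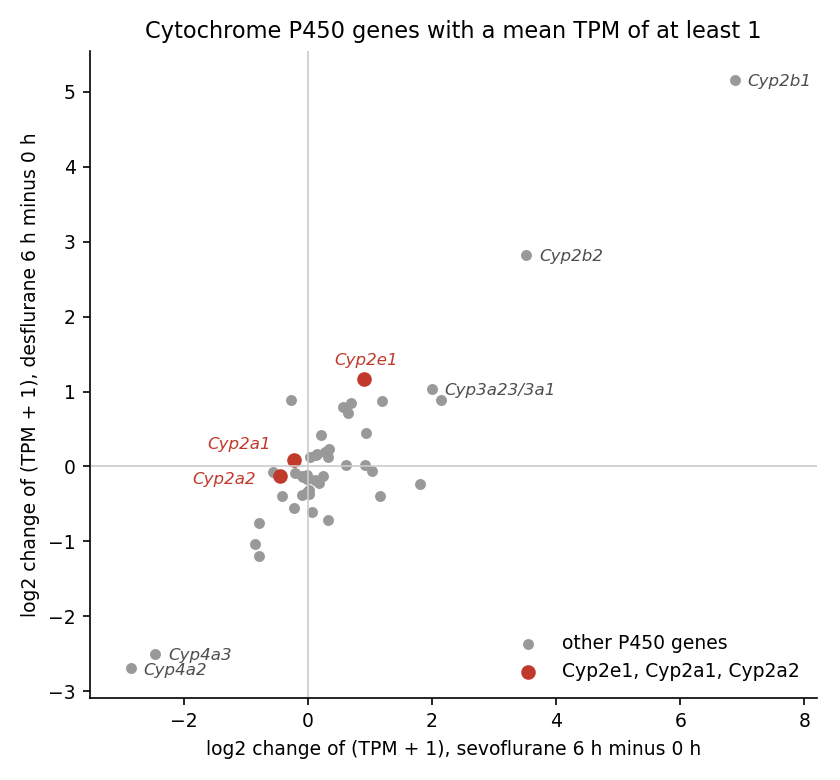
Change of log2(TPM + 1) at 6 h against the control of the same agent for 47 P450 genes of mean TPM 1 or more, with sevoflurane on the x axis and desflurane on the y axis (1 pair of libraries each) and the members in red. *Cyp2e1* lies at 0.90 and 1.16, *Cyp2a1* at -0.21 and 0.09, and *Cyp2a2* at -0.45 and -0.13.

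The genes whose pattern was most like that of each member were sought among 710 genes of mean TPM 100 or more, as the smallest root mean square distance between the centred log2(TPM + 1) values of the 4 libraries. Nearest to *Cyp2e1* were *Sephs2*, an enzyme of selenoprotein synthesis (distance 0.057), *Gch1*, the first enzyme of tetrahydrobiopterin synthesis (0.066), and *Agt*, which encodes angiotensinogen (0.11). The TPM of *Sephs2* was 104, 202, 122 and 247 in the order used above, so it also lay higher in both 6 h livers. Only 11 genes (1.55%) lay within 0.2 of *Cyp2e1*. For *Cyp2a1* 470 genes (66.2%) and for *Cyp2a2* 402 genes (56.6%) lay within that distance, since most abundant genes differed little between libraries. Nearest to *Cyp2a1* were *C1r*, *Clec4f* and *Arf1*, and nearest to *Cyp2a2* were *Serpina4*, *Calm2* and *Hgd*. *Cyp2a2* was 215th in order of distance from *Cyp2a1* (0.13), and *Cyp2a1* was 256th from *Cyp2e1* (0.55). Such distances over 4 libraries describe these livers and carry no test.

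Genes that work with the members were examined as lists. For this and every list below, the shares over all genes were 5.04% higher and 3.71% lower with sevoflurane. With desflurane they were 4.10% and 5.55%. Of the 7 electron partners of P450 enzymes, 6 were above the minimum and 1 was called, as higher with both agents. This was *Por*, which rose 24.7-fold with sevoflurane and 13.5-fold with desflurane. *Cyb5a*, the cytochrome that can pass the second electron to Cyp2e1, had ratios of 1.28 and 1.06, and *Pgrmc1*, a heme-binding P450 partner, of 0.930 and 0.978. The list medians were -0.25 and -0.03. Among 12 genes of alcohol and aldehyde oxidation, which share substrates with Cyp2e1, 10 were above the minimum. *Adh1*, the main liver alcohol dehydrogenase, fell 4.37-fold with sevoflurane, from a TPM of 451 to 103, and went from 254 to 136 with desflurane, which is not past the rule. *Adh7* fell 5.02-fold and 2.23-fold. No gene of this list was called higher, and *Aldh2* and *Cat*, which remove acetaldehyde and hydrogen peroxide, had ratios between 0.946 and 1.06.

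Since *Cyp2e1* is a gene of the pericentral hepatocytes, other genes of that zone were examined beside genes of the periportal zone. Of 17 pericentral genes 16 were listed, and 10 were above the minimum with sevoflurane and 12 with desflurane. With sevoflurane 1 rose and 0 fell, and with desflurane 2 rose and 2 fell, with medians of 0.20 and 0.05. *Oat*, which begins the breakdown of ornithine, rose 2.89-fold and 2.83-fold. *Slc1a2*, a glutamate transporter, rose 3.78-fold with desflurane, from a TPM of 1.48, and had a ratio of 1.99 with sevoflurane. *Tbx3* and *Rnf43*, both tied to Wnt signaling, fell 5.54-fold and 2.15-fold with desflurane, from TPM values of 2.04 and 2.23, which are close to the minimum, and for *Rnf43* the desflurane control was itself 4.20-fold above the sevoflurane control. *Pon1* and *Rgn*, the most abundant genes of the list, had ratios between 0.982 and 1.14. A pair of genes of this zone named after their values were seen, *Cyp1a2* and *Glul*, had ratios of 1.48 and 0.837 with sevoflurane and of 1.75 and 0.990 with desflurane.

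Of 16 periportal genes 14 were listed, and all 14 of these were above the minimum. With each agent 4 rose and 1 fell, and the list medians were 0.34 and 0.15. *Sds*, *Asl* and *Arg1*, which break down serine and make urea, were called higher with both agents, and *Asl* by 3.76-fold and 3.52-fold. *Pck1*, the control point of glucose synthesis, was 2.84-fold higher with sevoflurane and 1.87-fold higher with desflurane, and only the former is past the rule. *Cps1*, the first enzyme of the urea cycle, had ratios of 1.56 and 1.43. *Cyp2f4*, a P450 relative of the members in this list, fell 2.40-fold with desflurane. *Cdh1*, the one that fell with sevoflurane (ratio 0.364), and *Ass1*, which rose 2.51-fold with desflurane, were named after their values were seen.

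**Figure D5:**
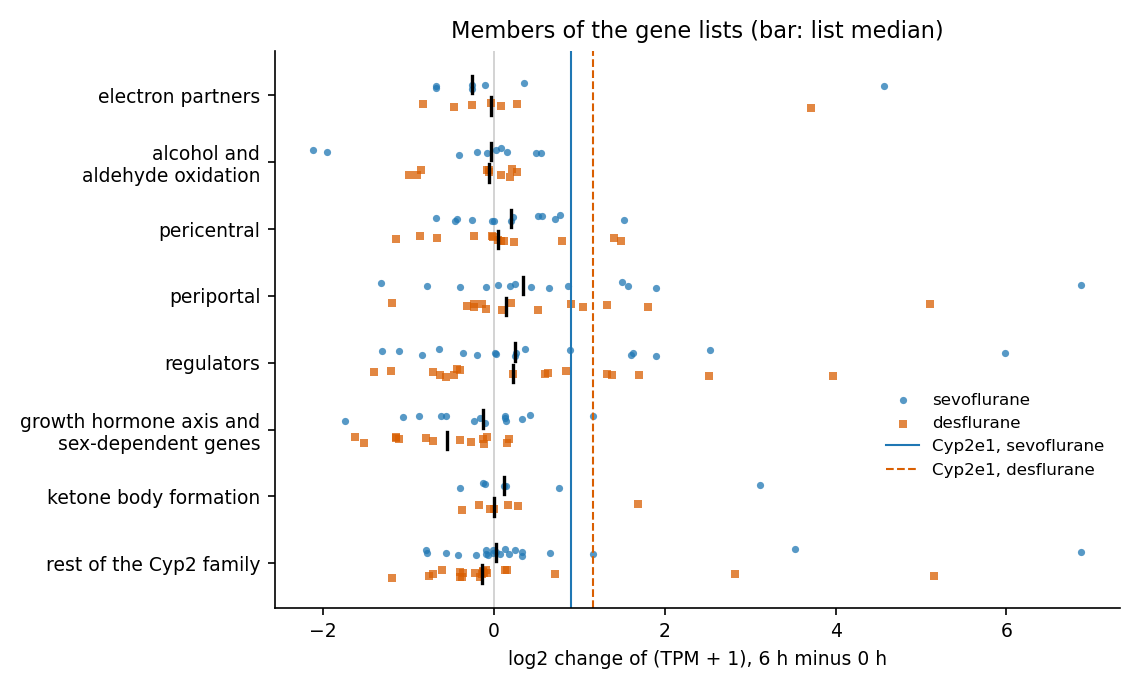
Change of log2(TPM + 1) at 6 h against the control of the same agent for list genes of mean TPM 1 or more (x axis), with lists as rows, circles for sevoflurane, squares for desflurane, a black bar at each list median and vertical lines at the changes of *Cyp2e1* (0.90 with sevoflurane, 1.16 with desflurane). The medians of the lists lie between -0.56 and 0.34, to the left of both lines.

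Transcription factors and receptors known to bear on liver P450 genes formed a list of 19, of which 18 were listed and 16 were above the minimum with each agent. With each agent 5 rose, while 2 fell with sevoflurane (*Nfe2l2* and *Nfil3*) and 3 with desflurane (*Foxa1*, *Foxa2* and *Nfe2l2*), which were named after their values were seen. *Foxa1* fell from a TPM of 2.45, which is close to the minimum. Also named after their values were seen, *Ppara* rose 3.30-fold and 3.42-fold, and *Ahr* rose 3.27-fold with sevoflurane. For *Ahr* the desflurane control was itself 2.31-fold above the sevoflurane control. Of all genes, 5.04% were called higher and 3.71% lower with sevoflurane, and 4.10% and 5.55% with desflurane. *Nr1i2*, which encodes the receptor PXR, rose 3.83-fold and 2.66-fold. *Tef*, a circadian regulator related to *Dbp*, rose 6.93-fold and 2.72-fold, and *Dbp* itself was called higher with both. *Cebpb* rose 5.90-fold with desflurane and had a ratio of 1.88 with sevoflurane. *Hnf4a* and *Cebpa*, the most abundant of the list, were not called, with ratios of 1.18 and 1.19 with sevoflurane and of 0.758 and 1.56 with desflurane.

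Growth hormone bears on the levels of *Cyp2a1*, *Cyp2a2* and other sex-dependent genes in rat liver, and 15 genes of this axis were examined. Of these, 13 were above the minimum with sevoflurane and 14 with desflurane. With sevoflurane 1 rose and 2 fell, and with desflurane 0 rose and 5 fell, with *Stat5a* among those that fell with both and *Cish* with desflurane (named after their values were seen). *Cish* fell from a TPM of 2.29, which is close to the minimum, in a control 2.31-fold above that of sevoflurane. The median was -0.13 with sevoflurane and -0.56 with desflurane, the lowest of the 7 lists of partner, pathway and zone genes with that agent. *Socs2*, which is induced by growth hormone and restrains its receptor, fell 3.55-fold and 3.31-fold. *Igfals*, a carrier of IGF1 in blood, fell 2.23-fold with desflurane and had a ratio of 0.648 with sevoflurane. *Bcl6* fell 3.76-fold with desflurane from a TPM of 7.99 in a control 4.83-fold above that of sevoflurane, but stood at 1.66 and 2.57 with sevoflurane. *Cyp2c12*, the female-predominant steroid hydroxylase, was 2.26-fold higher with sevoflurane (from 49.2 to 111) and went from 27.3 to 20.5 with desflurane.

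*Cyp2e1* acts on acetone, a ketone body, and is known to rise in fasting. Of 7 genes of ketone body formation, all above the minimum, 1 was called, as higher with both agents. This was *Cpt1a*, which admits fatty acids to mitochondria, with 8.94-fold and 3.24-fold increases and with controls that themselves differed 2.78-fold. *Acadm*, an enzyme of fatty acid oxidation, had ratios of 0.911 and 0.886. The list medians were 0.12 and -0.0012. The sources used here do not say how the animals were fed.

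The cell makeup of the livers was described by marker lists. In bulk tissue, fewer cells of a type and less RNA per cell cannot be told apart. The 8 hepatocyte markers, led by albumin, had a summed TPM of 104253 and 107965 in the sevoflurane and desflurane controls. At 6 h it was 101895 and 96048, so both 6 h livers lay below both controls, and none of the markers was called. *Cyp2e1* came to 0.946%, 1.81%, 1.04% and 2.56% of the albumin TPM, so its difference between times was also present relative to a hepatocyte gene. Albumin itself was lower at 6 h (55976.5 with sevoflurane and 53281.7 with desflurane) than in the respective controls (57453.3 and 58867.5). This ratio therefore enlarges the difference of *Cyp2e1*. The 6 red blood cell markers differed with time, with summed TPM of 632 and 991 in the controls and of 1671 and 1864 at 6 h, and 5 of 6 were called higher with sevoflurane and 0 of 6 with desflurane. Their part in the results was not tested. The sums of 7 Kupffer cell markers (232 to 312), of 5 listed endothelial markers (50.7 to 61.7), of 4 listed cholangiocyte markers (6.90 to 8.61) and of 6 T and NK cell markers (6.66 to 10.9) overlapped between 6 h and 0 h. Of the T and NK cell markers, 1 passed the rule downward after sevoflurane. The sum of 6 stellate cell markers was 28.8 and 29.2 in the controls and 35.4 and 29.7 at 6 h. Both 6 h livers lay above both controls, but the desflurane pair was almost level. After sevoflurane 1 stellate marker passed the rule upward and 1 downward, so the sum does not describe each marker. After desflurane no stellate marker passed it. The part of the stellate sum in the results was not tested. Of 6 pancreatic acinar markers, 4 or 5 were listed at 0 in each library.

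The depth of the libraries, taken from the ratio of coverage to FPKM, was 3.50 Gb of aligned bases in the sevoflurane control and between 5.29 and 5.57 Gb in the others, and between 7881 and 8094 genes were above a TPM of 2. Of the TPM of named genes, albumin took between 6.91% and 7.50%, and the signal recognition particle RNA *Rn7sl1* between 18.1% and 20.7%. Calls with sevoflurane comprised 417 genes higher and 307 lower, and with desflurane 343 higher and 465 lower. With that median-of-ratios scaling the latter became 419 higher and 365 lower, and between the controls 162 higher and 66 lower became 105 and 93.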

How the data were processed

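RNA-seq of 4 rat livers was analysed from the gene abundance tables deposited by the authors, 1 per library. Per the labels, libraries were made from total RNA with a stranded kit, and the submitters' processing notes name HISAT2, SAMtools and StringTie and the build rn6, without versions, and the annotation was not given in the sources read. The deposited TPM score of each row is scaled for length and library size. Assembled loci alone sum to the full TPM total, and named genes are listed beside them at 0.766 to 0.789 of that sum. The FPKM deposited by the authors differs from TPM by a factor that is constant only within a library. This factor was between 1.48 (sevoflurane control) and 1.57 (sevoflurane 6 h), so ratios between libraries differ between the measures. The deposited coverage signal is the mean depth per base. Coverage divided by FPKM was within 1% of its median for 97.1% to 97.4% of named rows above an FPKM of 0.5. Read counts were not used here, so that no counting interval is given.

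Rows of one symbol were summed and spans of 200 bp or less were left out. Ratios and log2(TPM + 1) differences were computed with Python 3.11.15 and pandas 2.3.3. The common change was fitted with limma 3.58.1 in R 4.3.3 (two-sided moderated test with a mean-variance trend, p adjusted by the Benjamini-Hochberg method, threshold 0.05). The rule of size and the limma fit were each run on simulated data with planted changes larger than any change of the members. These runs checked the code, and they do not show how well a change as small as that of *Cyp2e1* is found. Groups were taken from the sample titles. The paper given with the series describes livers all taken at a common hour, and none of its methods was used. Besides the members, genes were named by a rule: the 2 most abundant genes of each list (3 for *Cyp2* relatives), up to 4 called ones by the larger change, and the 3 nearest in pattern. A gene that the rule names is not reported here. The members and lists were chosen with earlier results of these data known. The alternatives were other scalings, pseudocounts, minimums, ratios, controls and rows, and leaving out each library. Symbols were matched to the GRCr8 RefSeq table (15057, or 88.6%) for names only.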

Additional observations from a re-analysis of the deposited data

Results flagged for a closer look

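Of 40 genes named above by rule, 8 had changes of opposite sign with the 2 agents, which was not tested since each agent had 1 pair of libraries. *Cyp2a1* was the only member among them, with log2 changes of -0.21 with sevoflurane and 0.09 with desflurane, a difference (desflurane minus sevoflurane) of 0.30. The differences were -1.95 for *Bcl6*, -1.56 for *Cyp2c12*, -1.38 for *Rnf43*, -0.64 for *Hnf4a*, -0.14 for *Aldh2*, -0.10 for *Cat* and -0.03 for *Rgn*. Both signs were kept under scaling by the median of ratios for 5 of the 8, *Cyp2a1*, *Rnf43*, *Hnf4a*, *Bcl6* and *Cyp2c12*.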

How the results depend on the processing

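Of 96 recomputed values of the members, 90 were kept (29 of 32 for *Cyp2e1*, 30 of 32 for *Cyp2a1* and 31 of 32 for *Cyp2a2*). This tally includes settings that could not alter genes so abundant and long. A TPM minimum of 5 and the keeping of rows of 200 bp or less left each ratio comparison as it was. A pseudocount of 0.1 hardly moved the values. A called value was kept where its direction and call held, and an uncalled one where it stayed uncalled and either moved by less than 1.5 times (ratios) or held its sign (limma). Among the kept, the small difference of *Cyp2a1* between controls (0.05) turned to -0.09 under the median of ratios and to -0.04 without *Rn7sl1*. With a ratio above 1.5 in place of 2, *Cyp2e1* was also called higher with sevoflurane (0.90), and the genes called were 1924 with sevoflurane, 2027 with desflurane and 872 between controls, against 724, 808 and 228. With a TPM minimum of 5 they were 529 with desflurane and 101 between controls. With the summed TPM of overlapping assembled loci, *Cyp2a1* was called higher with desflurane (1.28), where its locus is joined to *Cyp2a2*, and *Cyp2a2* was called lower with sevoflurane (-1.08), where its pieces in the control are each a locus. That sum for *Cyp2a2* also takes in the locus of *Cyp2a1*, at a TPM of 178 in the sevoflurane control and 154 in sevoflurane 6 h. In the common change, *Cyp2e1* (1.03) was not called without the filter on low genes, with 25 genes called in place of 692. With 1 library left out and no agent term, the change of *Cyp2e1* ranged from 0.82 to 1.24 and was not called without the sevoflurane control (0.95), that of *Cyp2a1* ranged from -0.24 to 0.11 and turned positive without sevoflurane 6 h, and the genes called ranged from 163 (without the sevoflurane control) to 591, with 283 without the desflurane control and 411 without desflurane 6 h. The lone library of a time was there assumed to vary like the others. The agent term of the fit pairs the libraries of an agent. Without this pairing the limma adjusted p of *Cyp2e1* was 0.0099 and 488 genes were called. The sevoflurane control was the shallowest library, at 3.50 Gb, and whether depth bears on these values was not tested.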

Other observations

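In the tables the end of *Syce1* lies 1442 bp beyond that of *Cyp2e1*. *Syce1* is a gene of the meiotic synaptonemal complex on the minus strand, read toward *Cyp2e1*. It was listed at a TPM of 0 and 0.041 in the sevoflurane and desflurane controls and at 0.344 and 0.401 at 6 h, and in sevoflurane 6 h a plus-strand locus from 213527167 to 213535300 was assembled over it at 1.19. In the desflurane control a locus of no given strand, from 213522414 to 213523028, was assembled 218 bp past the end of *Cyp2e1* at 1.49. These values are under the minimum of 2. Among P450 genes that were not called with either agent, *Cyp27a1*, which makes bile acids and hydroxycholesterol, had TPM values of 134 and 217 at 0 h and 6 h of sevoflurane, and of 130.3 and 235 at 0 h and 6 h of desflurane. *Cyp2j4* had 18.8 and 30.2, and 22.9 and 38.4. Both were named after their values were seen.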
